A study of Homo sapiens with 6 samples.

Results

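The 75 genes described here encode nuclear-encoded subunits of the oxidative phosphorylation (OXPHOS) complexes, and their transcripts were measured in MDA-MB-231 cells after X-rays. Members were taken by gene symbol (the NDUFA, NDUFB, NDUFC, NDUFS and NDUFV genes of complex I, SDHA to SDHD of complex II, the UQCR genes and CYC1 of complex III, the common COX subunits of complex IV and the ATP5 subunits of complex V). All 75 symbols were found, each on 1 row of the 61280 gene rows, with 37 genes in complex I, 4 in complex II, 9 in complex III, 10 in complex IV and 15 in complex V. MDA-MB-231 is an established human triple-negative breast cancer line with a mesenchymal character. In the irradiated group, cells were exposed to 20 Gy of X-rays and grown for another 24 h (3 libraries). The control group was the same line without irradiation (3 libraries). The labels do not give the control cells' own time in culture, and they number the replicates without naming separate cultures. All p-values here therefore reflect the spread between 3 libraries a group, which may be technical. All 6 libraries come from 1 cell line, with no other genotype or agent named.

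The respiratory chain passes electrons from NADH (through complex I) and succinate (through complex II) by way of ubiquinone, complex III and cytochrome c to oxygen at complex IV. Complexes I, III and IV pump protons across the inner mitochondrial membrane, and complex V, the ATP synthase, uses the return flow of protons to make ATP. All of complex II and most subunits of the other complexes are encoded in the nucleus, translated in the cytosol and imported, while a small set of core membrane subunits is encoded by mitochondrial DNA. Breast cancer cells use both glycolysis and respiration, and the balance varies between lines.

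Expression is given in TPM, reads of a gene divided by transcript length and scaled to 1 fixed total per library, so each value is relative to all other RNA in it and the reads behind it are unknown. Pearson correlations of log2(TPM + 1) were 0.980 to 0.988 between libraries of a group and 0.976 to 0.982 between groups, over the 14621 genes that reached 1 TPM in 3 or more libraries. Of 6 mesenchymal markers of the line, 3 fell and 0 rose: VIM (1589 TPM in irradiated and 1967 TPM in control cells, adjusted p 0.00479), AXL (146 TPM in irradiated and 187 TPM in control cells, adjusted p 0.00921) and FN1 (29.3 TPM in irradiated and 38.0 TPM in control cells, adjusted p 0.0269). CD44 (226 TPM in irradiated and 215 TPM in control cells) and ZEB1 did not pass, and the summed level of the 6 was 2022.48 to 2111.28 TPM in irradiated and 2451.91 to 2514.16 TPM in control cells. Of 7 epithelial and luminal markers, ESR1 and CDH1 were under 1 TPM and PGR was listed at 0, while KRT8 averaged 459.8 TPM in irradiated and 427 TPM in control cells, ERBB2 26.1 TPM in irradiated and 22.5 TPM in control cells, EPCAM 8.45 TPM in irradiated and 10.3 TPM in control cells and GATA3 4.23 TPM in irradiated and 4.16 TPM in control cells. Those 4 did not pass the test, and the list summed to 479 to 515 TPM in irradiated and 452 to 472 TPM in control cells. Leukocyte markers summed to 40.4 TPM in irradiated replicate 1, nearly all of it PTPRC (40.36 TPM), and to at most 0.49 TPM in every other library. Fibroblast markers summed to 17.4, 12.9 and 17.2 TPM in irradiated cells and 12.3, 9.42 and 12.9 TPM in control cells, and endothelial markers to 1.05 to 1.64 TPM in irradiated and 1.00 to 1.49 TPM in control cells. The part of these markers in the results was not tested, and the fit without the library that holds PTPRC is given below.

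After irradiation 11 of the 75 subunit transcripts rose and 1 fell, all by small amounts. The increases covered complex I (NDUFA4, NDUFA13, NDUFB2, NDUFV1, NDUFS3, NDUFA11 and NDUFA12), complex II (SDHC), complex IV (COX7A2 and COX6A1) and complex V (ATP5PD), and the decrease was ATP5MC2 of complex V. The mean TPM of the increased transcripts was 1.14-fold to 1.26-fold that of control cells. Calls are from limma on log2(TPM + 1) with Benjamini-Hochberg adjustment over all 14621 genes and a threshold of 0.05, and the adjusted p of the 12 called genes ran between 0.0171 and 0.0490. The share called was 16.0% of the members, against 10.6% of all genes tested. In the upward direction it was 14.7% of the members against 6.53% of all genes, and downward 1.33% against 4.07%. The libraries of the groups did not overlap for 25 members, 19 higher and 6 lower, which is 33.3% against 34.9% of all genes and so near the background. Every member passed the filter on low values. In bulk RNA, fewer cells carrying a transcript and less of it per cell cannot be told apart.

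Across all 75 members the log2 changes (irradiated minus control) ran from -0.21 to 0.33, with 49 above and 26 below 0 and only NDUFA4 past 0.3 in size. Their median was 0.05, against 0.03 over all genes tested. The members' spread was small, with a median within-group SD of 0.0709 log2 units against 0.126 over all genes.

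**Figure D1:**
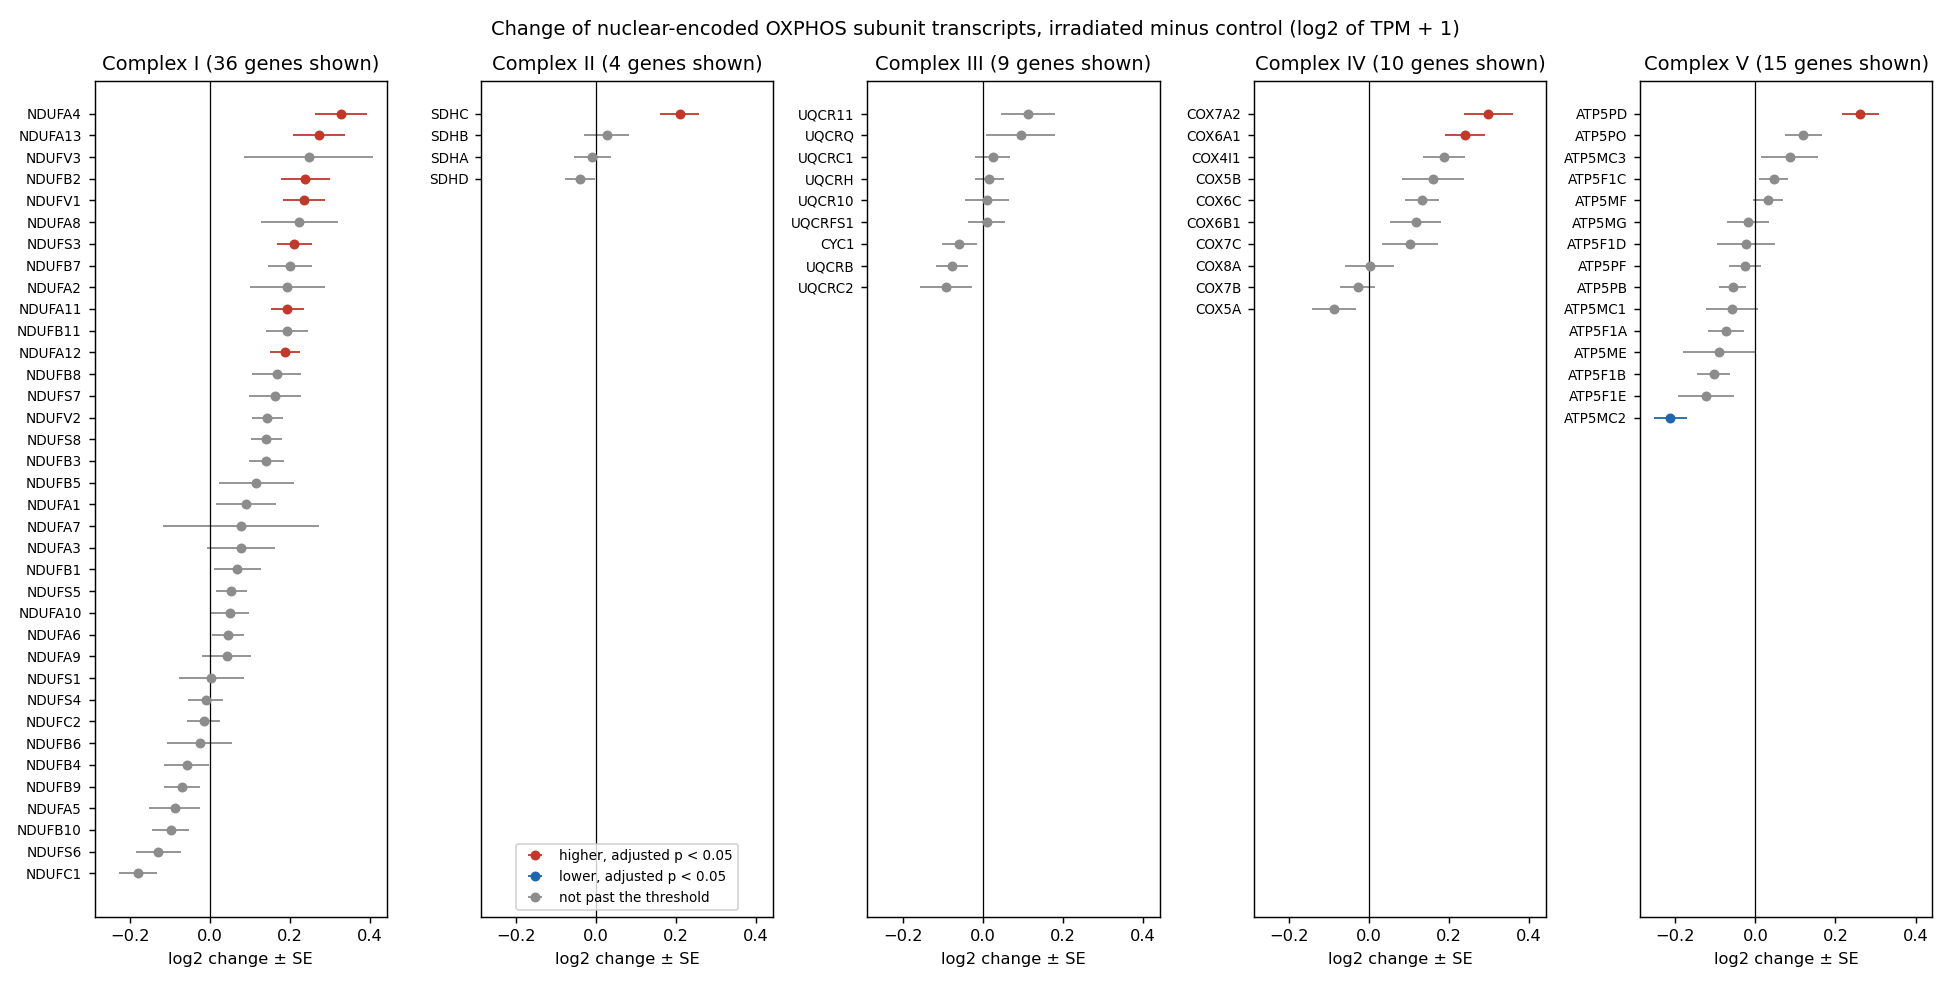
Log2 change of the subunit transcripts (1 complex I gene is not shown), irradiated minus control, on the log2(TPM + 1) scale, with bars for the standard error of the fit (3 libraries a group); each panel is 1 complex and coloured points passed the threshold. Changes run from -0.21 (ATP5MC2) to 0.33 (NDUFA4); most complex I and complex IV points lie right of 0 and 10 of the 15 complex V points lie left of it.

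The number of calls depended on how libraries were scaled and on single libraries. With median-ratio scaling, which shifts every member by the same small amount within a library, 2 members were called higher (ATP5PD and SDHC) and 1 lower (ATP5MC2), against 5.55% higher and 5.38% lower over all genes. Quantile normalization gave 16 higher and 1 lower, against 6.18% and 4.96% over all genes. A fit on protein-coding genes alone gave 16 higher and 2 lower, against 9.25% and 5.46%. After trends on GC content and transcript length were removed, 3 were higher and 6 lower, against 5.45% and 9.24%. Without control replicate 1, without control replicate 2 or without irradiated replicate 3, none of the 75 passed with limma at an adjusted p of 0.05. At that adjusted threshold 2.43%, 2.09% and 3.34% of all genes were called. At an unadjusted p under 0.05, 17, 17 and 18 members were higher and 4, 3 and 3 lower. The share of all genes at the unadjusted threshold is not given here, so those counts have no background. Leaving out irradiated replicate 1, the library with PTPRC, gave 4 higher and 0 lower, against 2.78% and 1.93% of all genes, and NDUFA4, COX6A1 and ATP5PD were among those 4. Without irradiated replicate 2 there were 4 higher and 2 lower, against 6.10% and 3.41%, with NDUFA4, NDUFA12, SDHC, ATP5PD and ATP5MC2 still called. Without control replicate 3 there were 11 higher and 1 lower, against 3.32% and 1.97%, and only SDHC of the 12 lost its call. All 12 kept their direction in every one of these fits, and the highest adjusted p that leaving out a library gave any of them was 0.154.

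**Figure D2:**
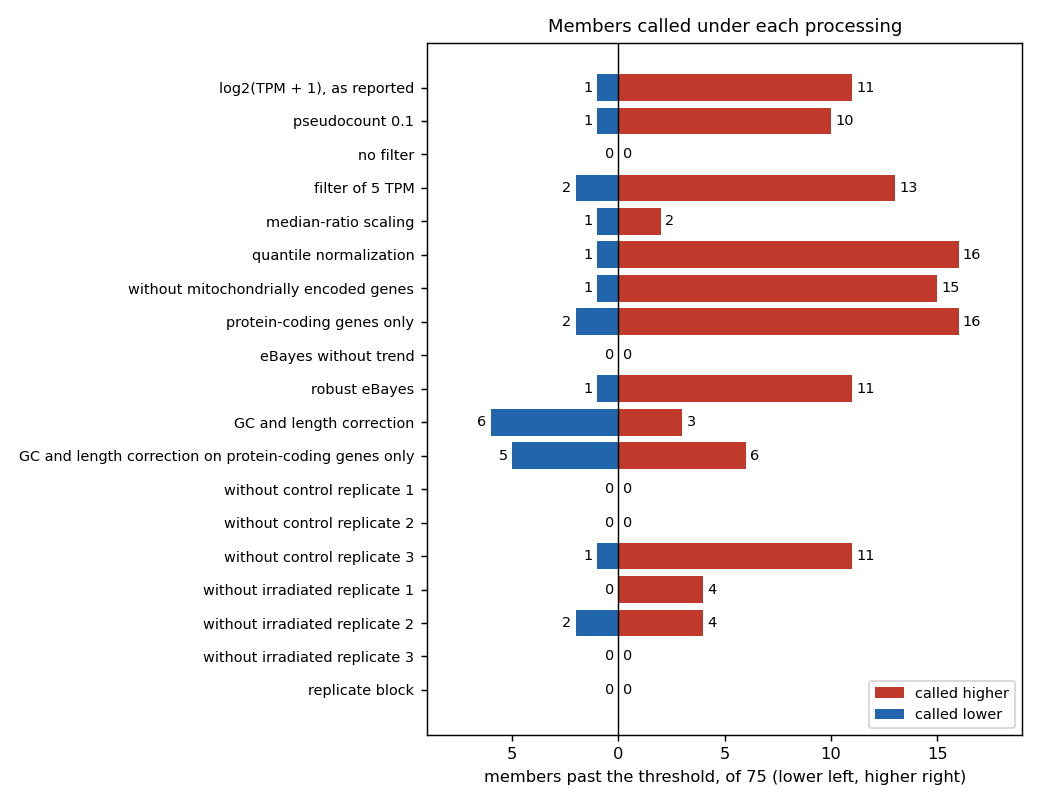
Number of the 75 members past the threshold under each processing, with those lower in irradiated cells left of 0 and those higher right of it. The reported fit gave 11 higher and 1 lower; counts of higher members ran between 0 and 16, and of lower members between 0 and 6.

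Complex I, the NADH dehydrogenase, had the most called members. Of its 37 nuclear transcripts 7 rose and none fell by limma (NDUFC1 had the lowest adjusted p among the 9 negative changes, 0.0529), or 18.9% higher, against 6.53% of all genes tested. Median-ratio scaling called 0 higher and 0 lower, against 5.55% and 5.38% of all genes. After the GC and length correction 0 were higher and 3 lower (NDUFB10, NDUFS6 and NDUFC1), against 5.45% and 9.24% of all genes. In the reported fit 28 changes were above 0 and the median log2 change was 0.12. It stayed above 0 under every scaling tried, down to 0.03 after the GC and length correction. Mean levels ran from 18.2 TPM for NDUFV3 to 690.3 TPM for NDUFS5.

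NDUFA4 (7:10931951-10940256 in hg38) showed the highest change of any member. The gene was named as a complex I subunit and its product is now assigned to complex IV. By its symbol it is counted with complex I here, in all counts, sums and ratios. It was at 78.7, 88.25 and 80.9 TPM in irradiated cells, against 61.8, 65.1 and 69.9 TPM in control cells. Every irradiated library lay above every control library, with a log2 change of 0.33 ± 0.07 (SE; adjusted p 0.0256). After the GC and length correction the change was 0.34 but the adjusted p was 0.0583.

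NDUFA13 (19:19515736-19529054), also known as GRIM19, is an accessory subunit of the membrane arm and was first described as a cell death regulator. Its level was 561, 605 and 583 TPM in irradiated cells, against 443, 481 and 526 TPM in control cells. The groups did not overlap, although control replicate 3 came close to the irradiated libraries (log2 change 0.27 ± 0.06, adjusted p 0.0402). Most of that change was lost with the GC and length correction, which left 0.12 (adjusted p 0.169). NDUFB2, an accessory subunit of the membrane arm, was at 182, 204 and 188 TPM in irradiated cells and 158, 155 and 173 TPM in control cells. It was higher in all 3 irradiated libraries (0.24 ± 0.06, adjusted p 0.0490) and was the call nearest to the threshold.

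The core of complex I holds the redox centres that carry electrons from NADH to ubiquinone. NDUFV1, the subunit that binds NADH and the flavin (11:67605653-67612554), was at 129.9, 139 and 132 TPM in irradiated cells, against 114, 108 and 119 TPM in control cells. NDUFS3 (11:47565336-47584562), a core subunit next to the quinone-binding region, was at 214, 221 and 223 TPM in irradiated cells, against 191, 181 and 196.5 TPM in control cells. Both rose without overlap between groups, NDUFV1 by 0.24 ± 0.05 (adjusted p 0.0325) and NDUFS3 by 0.21 ± 0.04 (adjusted p 0.0288). The 7 nuclear core genes all had changes above 0, with a median of 0.14, and only NDUFV1 and NDUFS3 of the 7 passed the test. That is 28.6% of the 7 higher, against 6.53% of all genes, and median-ratio scaling called 0 of them. Under median-ratio scaling and after the GC and length correction 6 of the 7 were above 0. NDUFS1, which carries iron-sulfur clusters, was at 67.1, 57.6 and 69.05 TPM in irradiated and 59.5, 66.7 and 66.7 TPM in control cells, a log2 change of 0.00 ± 0.08 with overlapping groups (adjusted p 0.980). After the GC and length correction none of the 7 was called by limma, NDUFV1 being at 0.09 (adjusted p 0.228) and NDUFS3 at 0.10 (adjusted p 0.167). The core genes were grouped after their values were seen.

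NDUFA11 and NDUFA12 completed the called members of complex I. NDUFA11, an accessory subunit of the membrane arm, was at 603, 629.7 and 622 TPM in irradiated cells, against 525, 530.1 and 566 TPM in control cells (0.19 ± 0.04, adjusted p 0.0310). NDUFA12, an accessory subunit added late in assembly, was at 335, 345 and 350.1 TPM in irradiated cells, against 295, 302 and 308 TPM in control cells (0.19 ± 0.04, adjusted p 0.0255). In both the lowest irradiated library was above the highest control library. The most abundant complex I transcript, NDUFS5, was at 687, 719.97 and 703 TPM in irradiated cells, against 669.9, 662 and 700.5 TPM in control cells. Its groups overlapped (0.05 ± 0.04, adjusted p 0.402). Several accessory members, named after their values were seen, had groups that did not overlap and did not pass the test. NDUFB7 was at 304, 343 and 309 TPM in irradiated and 268, 278 and 284 TPM in control cells (0.20 ± 0.05, adjusted p 0.0590), and NDUFC1 at 66.9, 71.9 and 68.95 TPM in irradiated and 77.4, 80.1 and 78.1 TPM in control cells (-0.18 ± 0.05, adjusted p 0.0529).

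**Figure D3:**
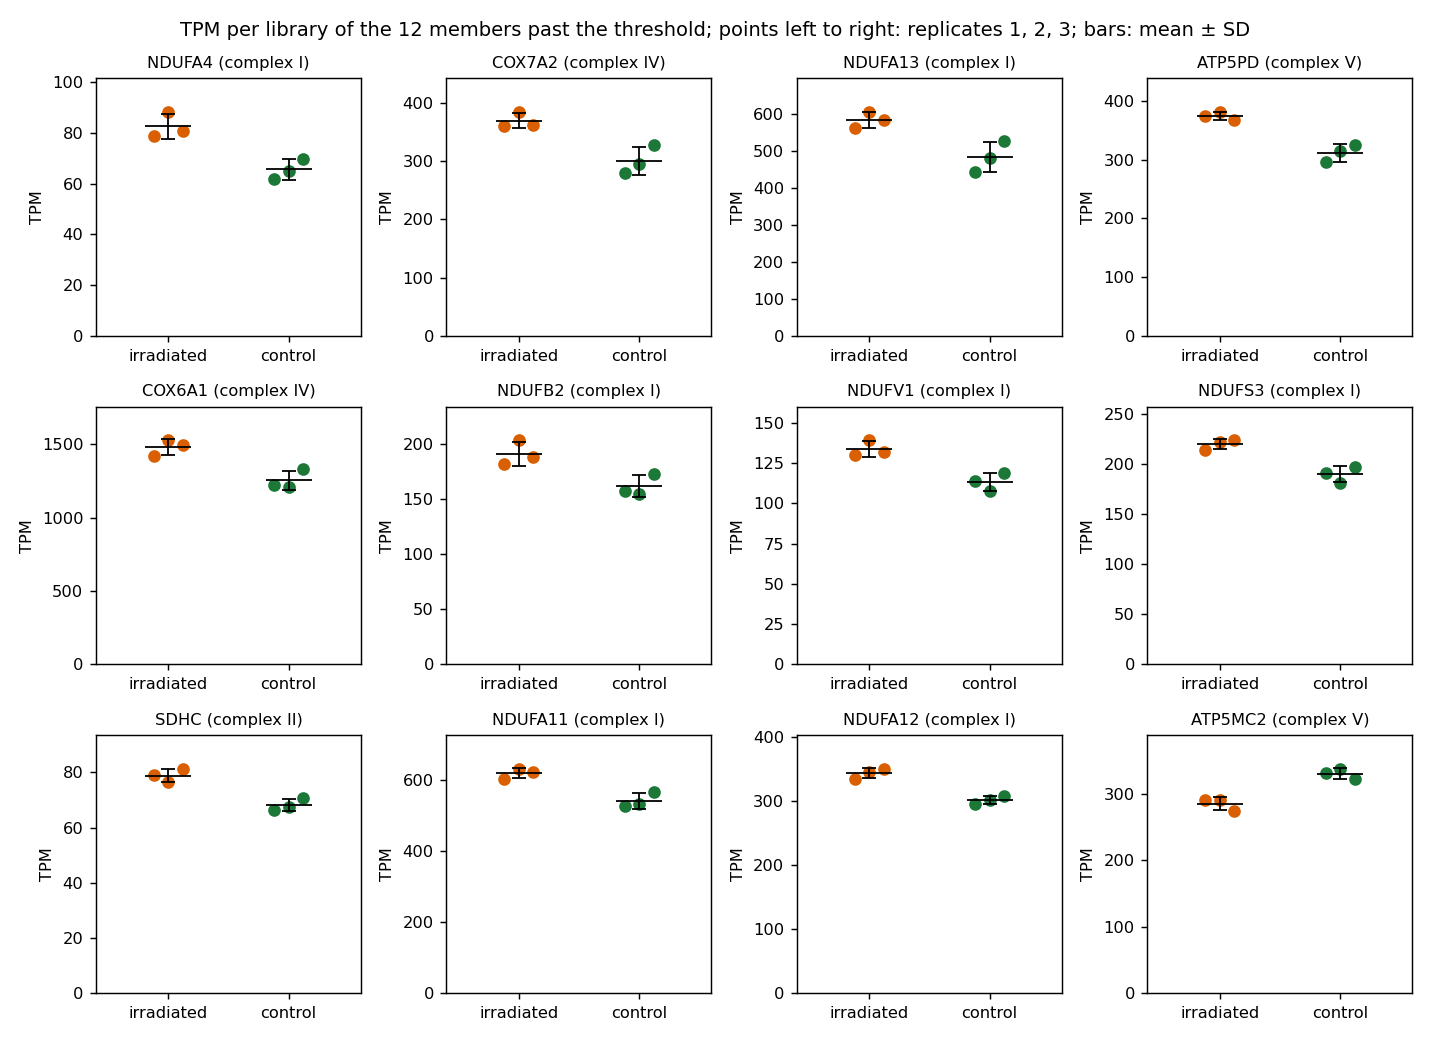
TPM in each library of the 12 called members, with the 3 irradiated libraries left and the 3 control libraries right in each panel; points are libraries and bars give the mean ± SD. In every panel the 2 groups do not overlap; 11 genes are higher and ATP5MC2 is lower in irradiated cells.

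Complex II, succinate dehydrogenase, links the tricarboxylic acid (TCA) cycle to the chain. Of its 4 subunits only SDHC, a membrane anchor that helps to bind haem and ubiquinone (1:161314257-161375340), was called. That is 25% of the 4 higher, against 6.53% of all genes. SDHC was at 79.0, 76.4 and 81.3 TPM in irradiated cells, against 66.2, 67.6 and 70.6 TPM in control cells, an increase of 0.21 ± 0.05 (adjusted p 0.0386). SDHC kept its call after the GC and length correction (0.15, adjusted p 0.0441) and under median-ratio scaling. The other anchor, SDHD, was at 171, 169 and 171 TPM in irradiated and 175, 171 and 179.6 TPM in control cells (-0.04 ± 0.04, adjusted p 0.528). The catalytic SDHA and the iron-sulfur subunit SDHB also missed the threshold, with changes of -0.01 and 0.03. The SDHA value is uncertain, because named pseudogenes of it together reached 26.9% of its level. The median of the 4 was 0.01, and turned to -0.01 under median-ratio scaling and -0.04 after the GC and length correction.

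None of the 9 complex III transcripts passed limma's test, against 6.53% of all genes higher and 4.07% lower. In 1 of them the groups did not overlap, against 34.9% of all genes. UQCRH, the hinge protein near cytochrome c1 and the most abundant member, was at 748, 774 and 779 TPM in irradiated cells, against 741, 778.5 and 754 TPM in control cells (0.02 ± 0.04, adjusted p 0.801). The small accessory subunits UQCR11 and UQCRQ had the changes farthest from 0. UQCR11 was at 116, 136 and 123 TPM in irradiated and 109, 121 and 116 TPM in control cells (0.11 ± 0.07, adjusted p 0.316). UQCRQ was at 232, 261 and 220.4 TPM in irradiated and 211, 208 and 248 TPM in control cells (0.10 ± 0.09, adjusted p 0.511). Both sets of libraries overlapped. The median of the complex was 0.01 and lay below 0 under median-ratio scaling (-0.01) and after the GC and length correction (-0.05). UQCRFS1, the Rieske iron-sulfur protein, had pseudogene rows at 20.7% of its level.

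Complex IV, cytochrome c oxidase, had 2 called members of 10, both higher (20%, against 6.53% of all genes). Median-ratio scaling called 0 of the 10 and the GC and length correction 1, which was higher. The share of all genes called higher was then 5.55% and 5.45%. COX7A2 (6:75237675-75250323), the widely expressed form of a small membrane subunit, was at 361, 384 and 363 TPM in irradiated cells, against 279.7, 295 and 327 TPM in control cells. The lowest irradiated library stood well above the highest control library (0.30 ± 0.06, adjusted p 0.0277). COX6A1 (12:120438090-120440742), the non-muscle form of subunit VIa and the most abundant of all 75 transcripts, was at 1423, 1525 and 1492 TPM in irradiated cells, against 1223, 1207 and 1330.1 TPM in control cells. It too rose without overlap (0.24 ± 0.05, adjusted p 0.0269). COX7A2 remained just inside the threshold after the GC and length correction (0.28, adjusted p 0.04998), and COX6A1 did not pass (0.15, adjusted p 0.104). COX4I1, a subunit through which ATP regulates the enzyme and named here after its values were seen, was at 677, 750.5 and 743 TPM in irradiated and 608, 639 and 659 TPM in control cells (0.19 ± 0.05, adjusted p 0.0639). Changes were above 0 for 8 of the 10 genes, with a median of 0.12 that stayed above 0 under every scaling tried.

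Complex V, the ATP synthase, was the complex with calls in both directions. Of its 15 genes 1 was higher and 1 lower (6.67% each, against 6.53% and 4.07% of all genes). ATP5PD (17:75038863-75046985) encodes subunit d of the peripheral stalk, which holds the catalytic head against rotation. It was at 374, 381 and 368 TPM in irradiated cells, against 296, 315 and 325 TPM in control cells, and its increase of 0.26 ± 0.05 had the lowest adjusted p of any member (0.0171). ATP5MC2 (12:53632726-53677408) is 1 of 3 genes whose mature product is the same proton-carrying c subunit of the rotor ring. It was at 291, 291 and 274 TPM in irradiated cells, against 332, 338 and 322 TPM in control cells, a decrease with no overlap (-0.21 ± 0.04, adjusted p 0.0235). Both calls held after the GC and length correction, ATP5PD at 0.24 (adjusted p 0.0348) and ATP5MC2 at -0.33 (adjusted p 0.00725), and under median-ratio scaling.

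The other 13 genes of complex V did not pass. The most abundant, ATP5MF, a small membrane subunit, was at 1323, 1417 and 1354 TPM in irradiated cells, against 1351, 1324 and 1330.3 TPM in control cells (0.03 ± 0.04, adjusted p 0.636). The 5 genes of the catalytic F1 head had a median of -0.07, and it was below 0 in every scaling tried. Among them ATP5F1B, the catalytic beta subunit, was at 785, 798 and 799 TPM in irradiated cells, against 831, 834 and 898 TPM in control cells, without overlap (-0.10 ± 0.04, adjusted p 0.145). The 3 c-ring genes had a median of -0.06 and the 4 peripheral stalk genes a median of 0.05, each of the same sign in every scaling tried. ATP5MC2 made up 37.4%, 34.2% and 33.8% of the c-ring genes' summed TPM in irradiated cells, against 40.5%, 39.2% and 36.7% in control cells, which overlapped. These groups of complex V genes were made after their values were seen. The median of the 15 genes was -0.03, and 0.00 under quantile normalization.

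Ratios within a library are free of any factor that scales the whole library. The summed TPM of the complex I genes was 7922.73, 8527.46 and 8190.03 in irradiated cells, against 7398.12, 7574.86 and 7910.98 in control cells, which just did not overlap. For complex V it was 5618.21, 5920.28 and 5765.94 in irradiated cells, against 5713.16, 5829.45 and 5929.07 in control cells, which overlapped. The ratio of complex I to complex V was therefore 1.41, 1.44 and 1.42 in irradiated cells, against 1.29, 1.30 and 1.33 in control cells, a mean of 1.42 ± 0.0154 in irradiated and 1.31 ± 0.0215 in control cells (SD, n = 3 each). The irradiated libraries all stood above the control libraries, by 8.72% in the means.

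Complex IV gave the same picture in its ratio to complex V, although its own sums overlapped. Its summed TPM was 5928.53, 6548.91 and 6253.05 in irradiated cells, against 5522.47, 5588.12 and 6024.96 in control cells. The ratio of complex IV to complex V was 1.06, 1.11 and 1.08 in irradiated cells, against 0.967, 0.959 and 1.02 in control cells. Set against complex III, the ratio of complex I was 3.01, 3.09 and 3.03 in irradiated and 2.79, 2.78 and 2.91 in control cells, and that of complex IV 2.25, 2.37 and 2.32 in irradiated and 2.08, 2.05 and 2.22 in control cells. In none of these ratios did the groups overlap. The ratio of complex III to complex V did overlap, at 0.469, 0.466 and 0.468 in irradiated and 0.464, 0.468 and 0.458 in control cells. Between the core genes of complex I and the F1 head genes of complex V the ratio was 0.586, 0.610 and 0.598 in irradiated cells, against 0.513, 0.506 and 0.510 in control cells, or 17.3% higher in the means. Both of these gene groups were made after their values were seen, so this separation is no independent result. The ratio of ATP5PD to ATP5MC2, a pair picked after their values were seen, was 1.29, 1.31 and 1.34 in irradiated cells, against 0.890, 0.934 and 1.01 in control cells. These ratios are a description with no test, and such sums follow the most abundant members.

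**Figure D4:**
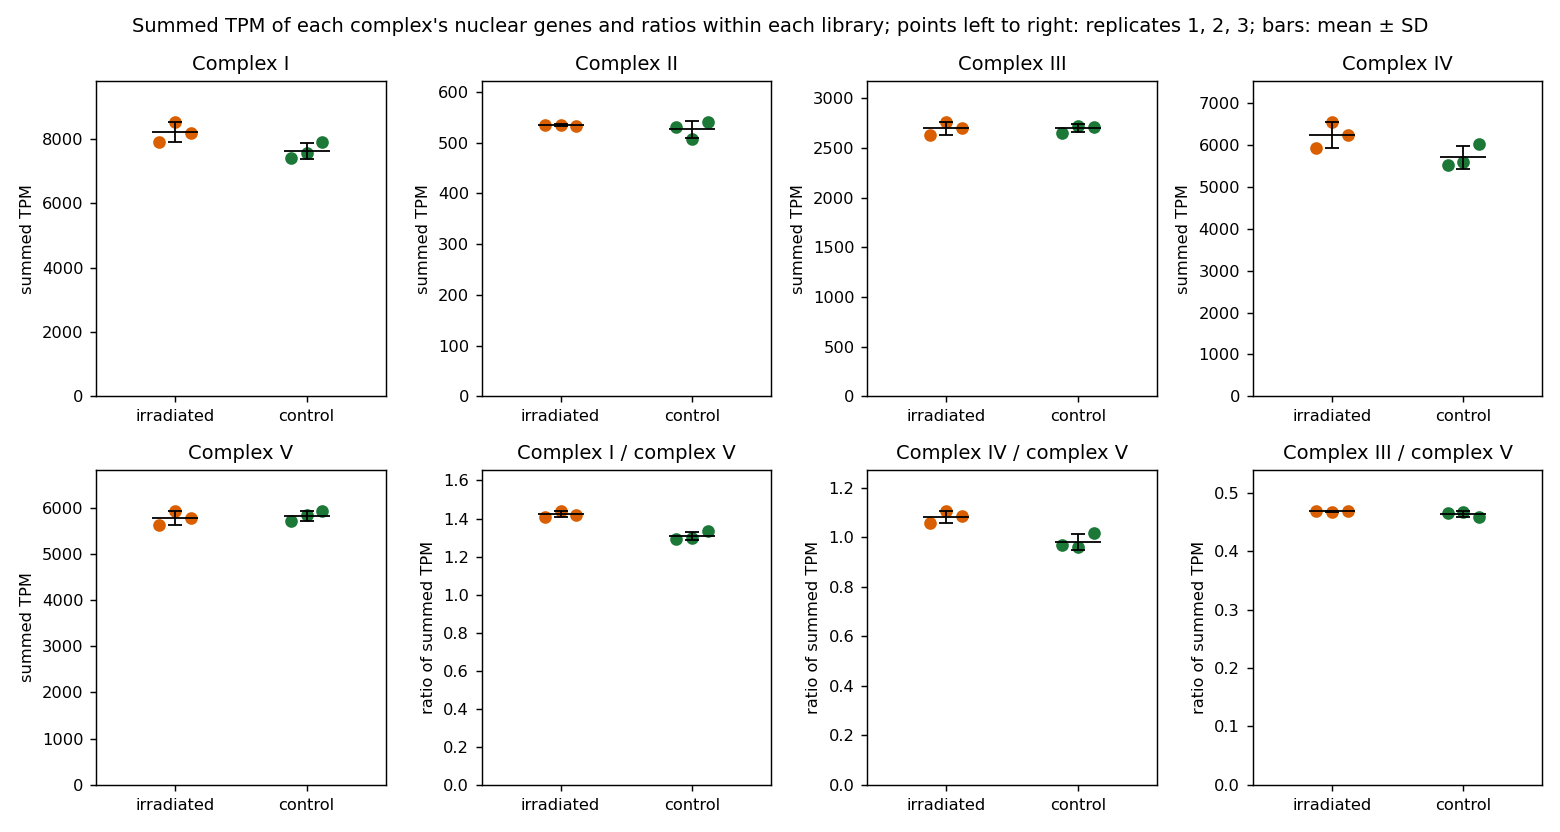
Summed TPM of each complex's nuclear genes and ratios of those sums within each library, irradiated left and control right; points are libraries and bars give the mean ± SD (n = 3 each). The ratio of complex I to complex V is 1.41 to 1.44 in irradiated and 1.29 to 1.33 in control libraries. The sums of complexes II, III, IV and V overlap between groups.

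Within each group most members had their highest value in the same library. The same counts over all genes are not given here, so whether this is particular to the members was not tested. Irradiated replicate 2 was the highest of its group for 53 of the 75 genes, irradiated replicate 3 for 19 and irradiated replicate 1 for 3. In the control group replicate 3 was the highest for 46 genes, replicate 2 for 19 and replicate 1 for 10. The mean control level was exceeded by 41, 55 and 47 genes in the irradiated libraries and by 19, 35 and 55 genes in the control libraries. Summed over all 75 genes the level was 22638.9, 24293.5 and 23441.7 TPM in irradiated cells, against 21818.7, 22226.0 and 23122.4 TPM in control cells, or 2.35% of the library in irradiated and 2.24% in control cells. Those sums overlapped, because control replicate 3 exceeded irradiated replicate 1.

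The subunit transcripts were short. Their median transcript length was 703 bases, against 1609 bases over all genes tested, and their median GC content 50.1%, against 49.7%. Encoded proteins ran from 51 residues for ATP5F1E to 727 for NDUFS1, with a median of 141. As a description over the 75 genes, which share the same 6 libraries, the log2 change had Pearson's r of 0.17 with GC content (Spearman's rho 0.17) and -0.03 with length (rho -0.11). Over all genes the values were 0.17 for GC content (rho 0.21) and -0.09 for length (rho -0.12).

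Correction for both features moved the median of the members to 0.00, with 37 genes above and 38 below 0, and 4 of the 12 calls were kept (COX7A2, ATP5PD and SDHC higher, ATP5MC2 lower). It added 5 lower calls, NDUFB10 (adjusted p 0.0145), NDUFS6 (0.0403), NDUFC1 (0.0308), CYC1 (0.0182) and ATP5F1B (0.0466). Before correction the mean levels of these 5 were lower in irradiated cells too, but none of them passed. The groups of NDUFS6 and CYC1 then overlapped. Fitted to protein-coding genes alone, an alternative chosen after seeing the data, the same correction gave 6 higher and 5 lower, against 7.89% and 11.2% of all genes, and NDUFA4, NDUFA12 and COX6A1 were called as well.

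**Figure D5:**
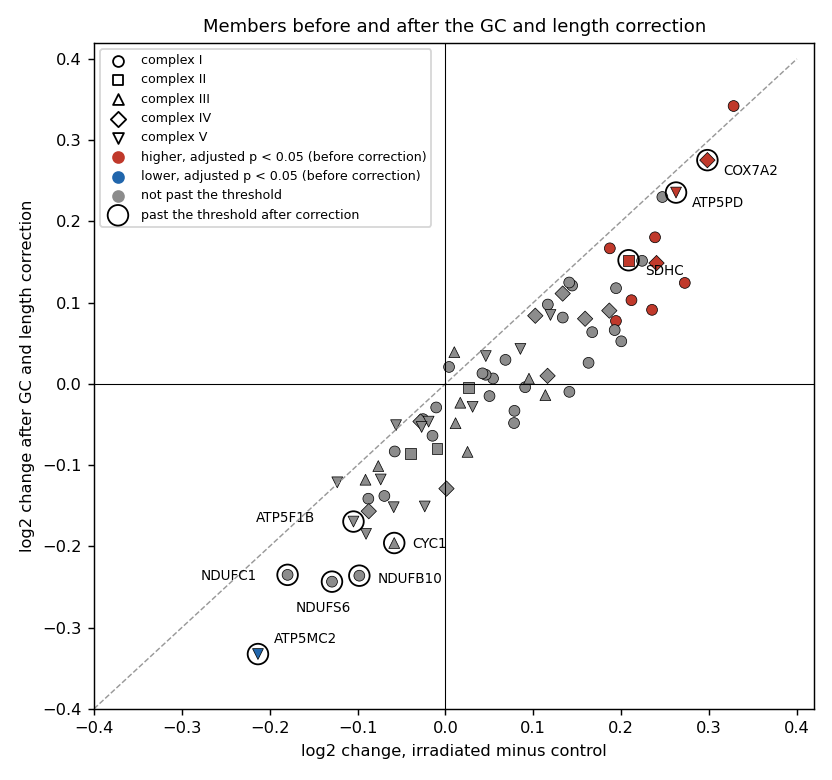
Log2 change (irradiated minus control) of each member before (x axis) and after (y axis) the correction for transcript GC content and length; marker shapes give the complex, colours the call before correction, rings the genes past the threshold after it, and the dashed line equal values. ATP5MC2 is at -0.21 before and -0.33 after, COX7A2 at 0.30 before and 0.28 after, and NDUFA13 at 0.27 before and 0.12 after.

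In GENCODE 29 the 75 genes lie on 22 chromosomes, with 10 on chromosome 19, 7 on chromosome 11 and 3 on the X chromosome. Exons of 30 members overlap those of another gene at 1 TPM or more, and 7 called genes are among them (ATP5PD, NDUFA11, NDUFA13, NDUFB2, NDUFS3, NDUFV1 and SDHC). No source used here says whether counting used strand, so reads of such pairs cannot be told apart. For NDUFS3 the overlapping gene PTPMT1 averaged 78.3 TPM, against 204 TPM for NDUFS3 itself. For NDUFA7 the opposite-strand neighbour RPS28 was at 916 TPM, against 60.8 TPM. For NDUFS1 the opposite-strand gene EEF1B2 was at 1149 TPM, against 64.4 TPM, so the NDUFS1 value given above is uncertain. Named pseudogenes passed 5% of the level of only SDHA, UQCRFS1 and NDUFV2 (6.82%).

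Many promoters of respiratory genes carry sites for NRF1 and for ETS factors such as GABPA, long known as regulators of nuclear respiratory genes. RefSeq promoter windows (GRCh38.p14, 250 bases before to 50 after the start) were matched for 61 of the 75 members, and letters were searched on both strands. GCGCATGCG, the core of the NRF1 motif, was in 10 of the 61 (16.4%, against 1.92% of all 35116 windows). CCGGAAG, an ETS motif, was in 19 (31.1%, against 10.3%), and AAGATGGCG, a YY1 motif, in 8 (13.1%, against 1.75%). CCAAT, the NF-Y box, was in 19 (31.1%, against 34.6%). The 35116 windows were not limited to genes expressed in these cells, whereas every member was expressed. These shares therefore do not compare members with other expressed genes. Among the 10 called members with a window, ATP5MC2 and COX6A1 held the NRF1 letters, ATP5PD, COX6A1, NDUFA13 and NDUFS3 the ETS letters, and ATP5PD, COX6A1 and NDUFA12 the CCAAT box.

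Windows of 4 called members are printed to show these letters beside transcripts that rose and the one that fell, 5′ to 3′ on the gene's strand, with matches in capitals and read on either strand. None of the matches shown overlaps another. In NDUFA13 (chr19:19515975-19516274, plus strand) the ETS letters begin at -10 from the start, and in ATP5PD (chr17:75046920-75047219, minus strand) they begin at -101 with the CCAAT box at -77. ATP5MC2 (chr12:53676034-53676333, minus strand) holds the NRF1 letters at -41. COX6A1 (chr12:120437863-120438162, plus strand) holds them at -219, with CCAAT boxes at -76 and -33 and the ETS letters at -16. NDUFA13 and ATP5PD were shown only because their windows held a match. COX7A2, whose change was larger, was left out because its window held none of these letters. The windows of ATP5MC2 and COX6A1 were chosen after the matches were seen.
NDUFA13: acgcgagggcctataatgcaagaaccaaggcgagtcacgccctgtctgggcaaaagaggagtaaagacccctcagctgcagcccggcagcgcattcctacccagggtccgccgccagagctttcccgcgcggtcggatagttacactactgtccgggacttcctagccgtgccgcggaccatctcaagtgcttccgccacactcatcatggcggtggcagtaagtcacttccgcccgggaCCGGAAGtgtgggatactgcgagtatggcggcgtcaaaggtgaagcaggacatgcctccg
ATP5PD: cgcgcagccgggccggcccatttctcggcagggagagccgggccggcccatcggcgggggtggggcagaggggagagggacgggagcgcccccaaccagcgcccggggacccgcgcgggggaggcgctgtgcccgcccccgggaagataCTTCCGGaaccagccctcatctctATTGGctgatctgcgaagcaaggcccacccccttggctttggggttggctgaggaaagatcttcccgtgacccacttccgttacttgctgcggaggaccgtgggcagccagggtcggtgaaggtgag
ATP5MC2: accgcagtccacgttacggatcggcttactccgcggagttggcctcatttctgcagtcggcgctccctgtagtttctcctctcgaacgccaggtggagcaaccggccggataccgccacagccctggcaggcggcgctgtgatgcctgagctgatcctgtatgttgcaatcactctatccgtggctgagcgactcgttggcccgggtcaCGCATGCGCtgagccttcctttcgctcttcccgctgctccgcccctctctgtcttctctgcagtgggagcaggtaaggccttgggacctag
COX6A1: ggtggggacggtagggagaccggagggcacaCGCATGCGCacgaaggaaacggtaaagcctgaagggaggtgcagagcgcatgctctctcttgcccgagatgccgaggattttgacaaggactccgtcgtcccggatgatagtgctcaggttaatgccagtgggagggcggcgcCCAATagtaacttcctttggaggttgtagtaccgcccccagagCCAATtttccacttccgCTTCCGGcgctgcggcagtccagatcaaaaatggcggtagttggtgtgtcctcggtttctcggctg

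Genes that make or run the same machinery were examined beside the subunits, and 13 of the 107 tested in 6 lists passed, 7 higher and 6 lower. That is 12.1%, near the 10.6% of all genes, with 6.54% higher and 5.61% lower against 6.53% and 4.07% of all genes. Without control replicate 1, 2 or 3 the count was 3, 1 and 7 (all genes 2.43%, 2.09% and 5.29%), and without irradiated replicate 1, 2 or 3 it was 7, 10 and 4 (all genes 4.71%, 9.51% and 3.34%). Of 15 subunits or close relatives outside the symbol rule, 8 could be tested and 1, COX7B2, rose (12.5% higher, against 6.53% of all genes). Median-ratio scaling called 0 higher and 0 lower, against 5.55% and 5.38% of all genes. After the GC and length correction 0 were higher and 1 lower, against 5.45% and 9.24%. COX4I2, COX6A2 and COX8C, forms of other tissues, were listed at 0. COX7B2, a testis-enriched relative of COX7B, was at 176, 175 and 165 TPM in irradiated cells, against 142, 149.9 and 155 TPM in control cells (0.21 ± 0.05, adjusted p 0.0391). COX7B2 did not pass limma's test after the GC and length correction (0.19, adjusted p 0.0849). Its ratio to COX7B was 2.63, 2.59 and 2.44 in irradiated cells, against 2.05, 2.15 and 2.31 in control cells, without overlap.

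Of 16 complex I assembly factors 2 rose and 0 fell (12.5% higher, against 6.53% of all genes), with a list median of 0.03, the same as over all genes. Median-ratio scaling gave 2 higher and 0 lower, against 5.55% and 5.38% of all genes. The GC and length correction gave 2 higher and 2 lower, against 5.45% and 9.24%. TIMMDC1, a membrane protein of complex I assembly intermediates, was at 90.3, 96.0 and 98.7 TPM in irradiated cells, against 72.3, 70.3 and 72.2 TPM in control cells (0.40 ± 0.05, adjusted p 0.00668). FOXRED1, an assembly factor with an oxidoreductase fold, was at 47.7, 44.9 and 51.6 TPM in irradiated cells, against 36.8, 37.7 and 40.3 TPM in control cells (0.32 ± 0.07, adjusted p 0.0300). Neither gene's groups overlapped.

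Among 34 assembly factors of complexes II to V 3 rose and 2 fell (8.82% and 5.88%, against 6.53% and 4.07% of all genes), with a median of 0.04. Under median-ratio scaling and after the GC and length correction 0 were higher and 2 lower. The share of all genes called higher was then 5.55% and 5.45%, and lower 5.38% and 9.24%. UQCC3, which helps to assemble complex III, fell by 0.47 ± 0.08 on the log2 scale (adjusted p 0.0142), with 14.2, 16.5 and 15.9 TPM in irradiated cells, against 21.7, 21.8 and 22.2 TPM in control cells. COX14, which acts early in complex IV assembly with COX1, was at 131, 164 and 149 TPM in irradiated cells, against 113, 117 and 111 TPM in control cells (0.37 ± 0.08, adjusted p 0.0288). COA3, a partner of COX14, was at 111, 126 and 119.7 TPM in irradiated cells, against 95.2, 91.0 and 106 TPM in control cells (0.28 ± 0.07, adjusted p 0.0478). COX20, which acts on COX2, fell and COA4 rose, with adjusted p of 0.0315 and 0.0489. After the GC and length correction COX14 (limma, adjusted p 0.0654), COA3 (0.118) and COA4 (0.228) did not pass. UQCC3 (0.00705) and COX20 (0.0331) kept their calls.

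The mitochondrial genome encodes 13 subunits of the same complexes, and 1 of these rose (7.69%, near the 6.53% of all genes). Under median-ratio scaling 0 were higher, and after the GC and length correction 1 was, against 5.55% and 5.45% of all genes. MT-CO2, the copper-binding subunit that receives electrons from cytochrome c, was at 10709, 10377 and 9785 TPM in irradiated cells, against 8530.1, 8095 and 7518 TPM in control cells (0.36 ± 0.06, adjusted p 0.0149). The 13 together held 120753, 116874 and 108252 TPM in irradiated cells, against 114510.0, 110832 and 97885 TPM in control cells, which overlapped. The ratio of the 75 nuclear to the 13 mitochondrial transcripts was 0.187, 0.208 and 0.217 in irradiated cells, against 0.191, 0.201 and 0.236 in control cells. It overlapped too, so no shift between the genomes was detectable over these libraries.

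Of 17 regulators of mitochondrial gene expression and biogenesis 0 rose and 3 fell (17.6% lower, against 4.07% of all genes), with a median of -0.05. NRF1, the factor whose motif was searched above, was at 6.61, 7.32 and 7.67 TPM in irradiated cells, against 9.87, 10.5 and 11.5 TPM in control cells (-0.50 ± 0.10, adjusted p 0.0243). PPRC1, a coactivator related to PGC-1 alpha, was at 39.4, 37.6 and 37.95 TPM in irradiated cells, against 52.2, 48.55 and 46.8 TPM in control cells (-0.35 ± 0.06, adjusted p 0.0159). TWNK, the mitochondrial DNA helicase, was at 28.6, 28.7 and 31.2 TPM in irradiated cells, against 34.4, 35.1 and 35.8 TPM in control cells (-0.24 ± 0.06, adjusted p 0.0443). In all 3 genes the groups did not overlap. TFAM, which packages mitochondrial DNA and is named here after its values were seen, was at 57.9, 50.1 and 60.3 TPM in irradiated and 63.5, 72.3 and 67.3 TPM in control cells (-0.27 ± 0.08, adjusted p 0.0797). With median-ratio scaling or the GC and length correction 5 regulators were lower and 0 higher, and the share of all genes called lower was 5.38% and 9.24%.

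Of 19 TCA cycle enzymes 0 rose and 1 fell (5.26% lower, near the 4.07% of all genes), with a median of 0.04. Median-ratio scaling gave 1 lower and the GC and length correction 3 lower, against 5.38% and 9.24% of all genes. Citrate synthase (CS), the entry enzyme of the cycle, was at 117, 109.8 and 119 TPM in irradiated cells, against 136, 142 and 142 TPM in control cells, with no overlap (-0.28 ± 0.05, adjusted p 0.0158).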

How the data were processed

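Per the labels' protocols, total RNA of the cell line went into TruSeq RNA libraries. The authors deposited TPM values for each gene and library; the submitters' processing notes name HISAT2, StringTie, RSEM and the build hg38, with no versions or roles. The sources used here do not give read depth, strand setting or annotation.

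The 14621 genes that reached 1 TPM in 3 or more of the 6 libraries were tested on log2(TPM + 1), a scale that understates changes of low genes. All fits used limma 3.58.1 in R 4.3.3 (eBayes with trend; residual df 4, prior df 3.39). Tests were two-sided, and p-values were adjusted by Benjamini-Hochberg over all genes with a threshold of 0.05. The pipeline was tested on simulated data. At most 0.479% of values were identical between replicates, and each of the 6 libraries entered the fit. Positions, lengths and GC content came from GENCODE 29 on the hg38 assembly, and the feature correction covered 14139 of the tested genes (96.7%).

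The members and lists were chosen with earlier results of these data known. Named were all called members, in each complex also the most abundant one and those with the 2 largest changes, and in each list up to 3 called genes; COX20, COA4, genes named beside these and genes whose naming is stated as later were added after values were seen. Some genes of the lists are not reported here by name. No list was tested as a set. As alternatives, libraries were left out in turn, blocked by replicate number, scaled by median ratios or by quantiles, or corrected for GC content and length. Other fits used robust eBayes, eBayes without trend, a pseudocount of 0.1, the filter set to 5 TPM or dropped, protein-coding genes alone, or the table without mitochondrially encoded genes.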

Additional observations from a re-analysis of the deposited data

How the results depend on the processing

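Depth is unknown, and 3 libraries a group limit what small changes can show. The reported counts were 11 members higher, 1 lower, and 13 genes of the other mitochondrial lists in either direction. With no filter or with eBayes without trend, limma called 0 members higher and 0 lower (20 and 3 without a filter and 16 and 2 without trend at an unadjusted p under 0.05), and 4 and 5 list genes. No share of all genes at an unadjusted p is given here to set beside such counts. At the adjusted threshold 497 of all genes were called with no filter, against 1550 in the reported fit, so calls were lost across the table. The count over all genes for eBayes without trend is not given here. A filter of 5 TPM gave 13 higher and 2 lower, with 1551 of all genes called. Median-ratio scaling gave 2 higher, and protein-coding genes only 2 lower. The GC and length correction gave 3 higher and 6 lower, and on protein-coding genes only, chosen after seeing the data, 6 higher and 5 lower. Without one library each, the counts ran from 0 to 11 higher, from 0 to 2 lower and from 1 to 10 list genes. The cause of these differences was not tested. A pseudocount of 0.1, quantile normalization, removal of mitochondrially encoded genes and robust eBayes kept all 3 counts within 1.5 times. The members' median stayed within the spread of library medians (0.0794) in all alternatives. That spread is larger than the reported median of 0.05, so this cannot show that the median is stable. The median was 0.03 under median-ratio scaling, 0.07 under quantile normalization and -0.004 after the GC and length correction. None of the 12 called members changed direction in any alternative. Of the 63 uncalled members, 5 crossed 0 under median-ratio scaling, 8 under quantile normalization, 2 without mitochondrially encoded genes, 12 after the GC and length correction, 6 with that correction on protein-coding genes only, and 3 to 7 without one library each.

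Same-numbered libraries had correlations of deviations of 0.031, -0.0554 and -0.025, too low to take equal numbers as pairs. With the replicate block limma called 0 members higher and 0 lower (24 and 4 at an unadjusted p under 0.05, with no share of all genes given) and 2 list genes. The count over all genes at the adjusted threshold is not given here for that fit, so these counts have no background.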
